A study of Mus musculus with 12 samples.

Results

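Collagens, laminins and other basement membrane genes were followed across 12 RNA-seq libraries of mouse dorsal cortex ventricular zone, the progenitor layer that lines the lateral ventricle. The group was defined by name and not by measured values. It holds the protein-coding genes whose symbol is a collagen chain (Col, number, a, number) or a laminin chain (Lama, Lamb or Lamc with a number), and in addition Nid1, Nid2, Hspg2, Agrn and Fn1. These were 60 of the 55487 gene identifiers in the files. Of the 60 genes, 56 passed the filter on low counts and were tested, and Col6a4, Col6a6, Col10a1 and Lamb3 did not pass it.

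Basement membranes are thin sheets of extracellular matrix on which epithelia, vessels and nerve tissue rest. Laminin trimers of an α, a β and a γ chain bind cell-surface receptors and form the first network, collagen IV trimers form the second, and nidogens, perlecan and agrin link the networks to each other and to cells. In the developing cortex the end-feet of radial glia are anchored to the basement membrane under the meninges, and blood vessels that cross the tissue have a basement membrane of their own. Fibrillar collagens build the stronger fibres of connective tissue, and fibril-associated collagens decorate them.

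Every embryo came from a knock-in line in which p18, an inhibitor of cyclin-dependent kinases encoded by Cdkn2c, and the fluorescent protein mKO2 lie behind a floxed stop cassette at ROSA26. All groups received tamoxifen by intraperitoneal injection. The groups were E16.5 p18mKO2+ (labelled as overexpressing), E16.5 p18mKO2- (labelled normal), E13.5 p18mKO2+ and E13.5 p18mKO2-, with 3 libraries each. The sources used here give neither the Cre driver nor whether a library is 1 embryo or several, so p-values reflect only library-to-library spread, part of which may be technical. The zone was cut out by laser microdissection as bulk tissue, in which fewer cells of a type and less RNA per cell cannot be told apart.

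Total estimated counts per library lay between 17101971 and 21837088. Cdkn2c itself was not called at either stage, with a log2 fold change of 0.14 ± 0.26 at E13.5 (SE; edgeR, adjusted p = 0.798) and 0.32 ± 0.26 at E16.5 (edgeR, adjusted p = 1). The libraries labelled p18mKO2+ are therefore named by their label throughout. Replicate 3 of E13.5 p18mKO2+ and replicate 3 of E16.5 p18mKO2+ held transcripts of both sexes, and all 3 E13.5 p18mKO2- libraries held Xist with almost no Y-linked counts. One E16.5 p18mKO2+ library, replicate 2, had 1487 CPM over the choroid plexus and hem markers, against 604 and 319 CPM in the other two. Replicate 3 of E13.5 p18mKO2+ had 449 CPM over the Cajal-Retzius markers, against 90.1 and 166 CPM in the other two and 89.6 to 143 CPM in E13.5 p18mKO2-. Choroid plexus and hem markers at E13.5 spread from 88.1 to 692 CPM in p18mKO2+ and from 28.5 to 429 CPM in p18mKO2- libraries.

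The matrix genes were a small and unevenly filled group. By TPM, which divides by transcript length and so allows genes to be compared, 15 of the 60 genes averaged at least 10 TPM over the 12 libraries, 26 lay between 1 and 10 TPM and 19 lay under 1 TPM. Agrn, the heparan sulphate proteoglycan agrin that clusters acetylcholine receptors at the neuromuscular junction, was the highest at 162 TPM and held 28.5% of the group's TPM. Fn1, the integrin-binding glycoprotein fibronectin, followed at 56.6 TPM, and Col4a1, the most widely used collagen IV chain, at 40.5 TPM. Col2a1, the fibrillar collagen of cartilage, averaged 29.2 TPM. Lamc1, the γ1 chain found in most laminins, averaged 25.8 TPM, and Col4a2, the partner of Col4a1, averaged 19.3 TPM. All 60 genes together took 0.0993 to 0.149% of the counts of E16.5 p18mKO2+ libraries, 0.0849 to 0.117% in E16.5 p18mKO2-, 0.127 to 0.154% in E13.5 p18mKO2+ and 0.173 to 0.195% in E13.5 p18mKO2-. The E13.5 p18mKO2- libraries thus stood above every other library in the share of counts given to matrix genes. By summed TPM they did not. Replicate 2 of E13.5 p18mKO2- had 652.4 TPM over the 60 genes, and replicate 2 of E16.5 p18mKO2+ had 669.8 TPM.

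**Figure D1:**
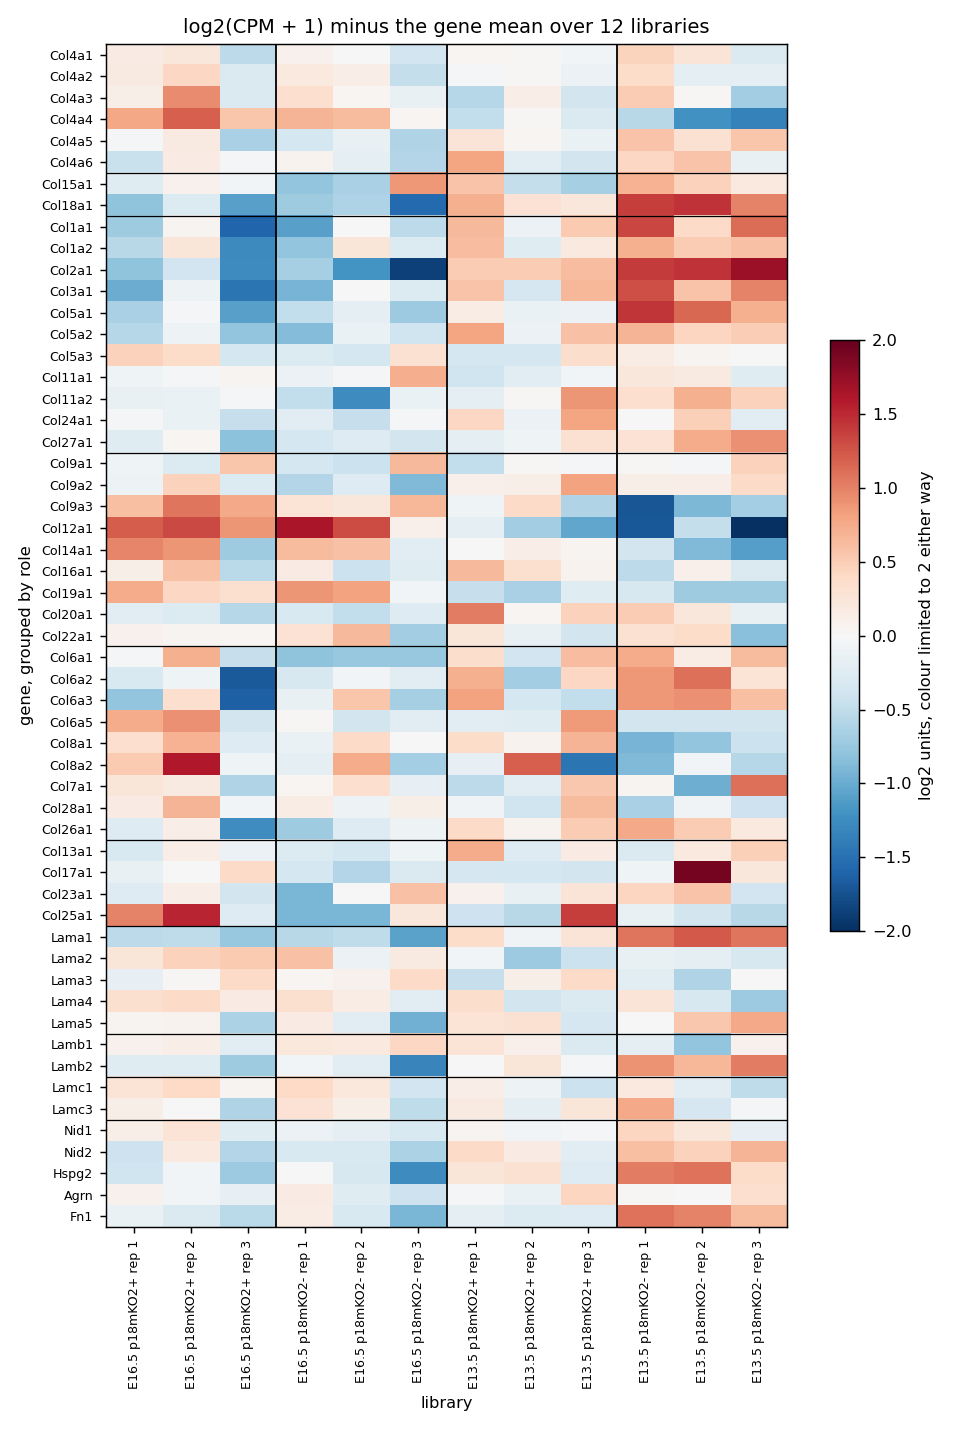
Heat map of 55 of the 56 tested matrix genes (down, in order of role) in the 12 libraries (across, by group), as log2(CPM + 1) minus the mean of the gene over all libraries, with colours limited to 2 log2 units either way. Red cells, above the gene's mean, gather in the 3 E13.5 p18mKO2- columns for Fn1, Lama1, Col2a1, Col5a1 and Col18a1, and in the E16.5 columns for Col12a1 and Col4a4.

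The first comparison asked which matrix genes differed with the p18 label at E13.5. Fibronectin, laminin α1 and the fibrillar collagens Col5a1 and Col2a1 fell in p18mKO2+ libraries, each to between 0.432 and 0.513 of the p18mKO2- level, and the fibril-associated collagen Col9a3 rose. These 5 of 56 tested genes were 8.93%, against 10.8% of all 16798 genes tested, so the share of matrix genes called was no larger than the background. The 4 that fell were 7.14% of the tested matrix genes, against 3.49% of all genes, and the 1 that rose was 1.79%, against 7.29% of all genes. The median log2 fold change over the 56 genes was -0.20, against 0.01 over all genes, and 36 of the 56 had a negative sign. In 15 of the 56 genes the libraries of the groups did not overlap (26.8%, against 30.7% of all genes), 10 with p18mKO2+ below (17.9%, against 14.1%) and 5 with it above (8.93%, against 16.6%).

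Fn1 (ENSMUSG00000026193, GRCm38 chromosome 1, 71585520 to 71653200, minus strand) binds integrins, collagen and heparan sulphate and is laid down early in many embryonic matrices. At E13.5 it had 115, 108 and 108 CPM in p18mKO2+ libraries, against 275, 259.8 and 202 CPM in p18mKO2- libraries. The groups were far apart, with the highest p18mKO2+ library well under the lowest p18mKO2- library. Its log2 fold change was -1.16 ± 0.22 (SE; edgeR, Benjamini-Hochberg adjusted p = 0.00477). The call held in all 22 alternatives run, which included leaving out each library.

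The other 4 linkers all had negative fold changes at E13.5, and none was called. Hspg2, the heparan sulphate proteoglycan perlecan, had 39.9, 41.8 and 28.04 CPM in p18mKO2+ libraries, against 69.1, 72.3 and 43.8 CPM in p18mKO2- libraries. Nid2, nidogen 2, had 29.4, 25.1 and 19.1 CPM in p18mKO2+ libraries, against 34.3, 31.04 and 36.6 CPM in p18mKO2- libraries. By CPM every p18mKO2+ library lay under every p18mKO2- library in both genes. The log2 fold changes of -0.76 ± 0.30 (SE; edgeR, adjusted p = 0.128) and -0.47 ± 0.22 (SE; edgeR, adjusted p = 0.209) missed the threshold. By TPM both genes overlapped. Hspg2 had 13.64, 14.62 and 12.1 TPM in p18mKO2+ libraries, against 30.58, 21.58 and 9.61 TPM in p18mKO2- libraries. Nid2 had 18.15, 13.69 and 10.64 TPM in p18mKO2+ libraries, against 14.99, 10.93 and 19.02 TPM in p18mKO2- libraries. Hspg2 was called in 3 of the 22 alternatives. Nid1, the other nidogen, had 37.6, 34.8 and 35.8 CPM in p18mKO2+ libraries, against 49.01, 42.5 and 32.2 CPM in p18mKO2- libraries, and these overlapped. Agrn had 338, 312 and 459 CPM in p18mKO2+ libraries, against 346, 341 and 433 CPM in p18mKO2- libraries. Agrn, the most abundant gene of the group, was the one nearest to no difference among the linkers, at -0.01 ± 0.18 (SE; edgeR, adjusted p = 0.974) on the log2 scale, and its groups overlapped.

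Of the 10 tested laminin chains, Lama1 was the 1 called in the edgeR fit reported here, against 10.8% of all genes. Lama1 (ENSMUSG00000032796, GRCm38 chromosome 17, 67697259 to 67822647, plus strand) encodes the α1 chain of the laminin that forms early embryonic basement membranes. It had 19.4, 14.1 and 17.9 CPM in p18mKO2+ libraries, against 32.03, 35.9 and 32.2 CPM in p18mKO2- libraries, without overlap and with a log2 fold change of -0.96 ± 0.20 (SE; edgeR, adjusted p = 0.00795). The call held in all 22 alternatives. On the length-scaled measure the picture was different, with 3.49, 5.44 and 7.44 TPM in p18mKO2+ libraries and 5.92, 5.85 and 4.93 TPM in p18mKO2- libraries, which overlapped. The average transcript length that RSEM assigned to Lama1 was 9526, 4372 and 4427 bases in p18mKO2+ libraries, against 8531, 9526 and 9526 bases in p18mKO2- libraries. The fall of Lama1 is thus a fall in read counts that was not seen in its TPM, and the part of the assigned length in this was not tested.

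The other α chains gave no call at E13.5. Lama2, the chain of muscle and glial end-feet basement membranes, had 4.85, 2.697 and 3.5 CPM in p18mKO2+ libraries, against 4.46, 4.34 and 3.86 CPM in p18mKO2- libraries. Lama4, a chain of vessel basement membranes, had 17.9, 10.5 and 11.2 CPM in p18mKO2+ libraries, against 16.8, 10.9 and 8.01 CPM in p18mKO2- libraries. Lama5, the broadly used α5 chain, had 16.7, 17.1 and 10.5 CPM in p18mKO2+ libraries, against 13.4, 20.2 and 23.6 CPM in p18mKO2- libraries. Each of these overlapped between the groups, and their log2 fold changes were -0.20, 0.15 and -0.37. Lama3, the α3 chain of epithelia such as skin, stayed under 1 CPM in all 12 libraries.

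The β chains lay on either side of zero. Lamb2, the β2 chain of synaptic, vascular and pial basement membranes, had 25.6, 30.4 and 24.97 CPM in p18mKO2+ libraries, against 48.7, 41.4 and 52.9 CPM in p18mKO2- libraries. Lamb1, the common β1 chain, had 43.8, 38.6 and 29.1 CPM in p18mKO2+ libraries, against 31.4, 20.5 and 38.3 CPM in p18mKO2- libraries. Lamb2 did not overlap and had a log2 fold change of -0.82 ± 0.27 (SE; edgeR, adjusted p = 0.0694), and Lamb1 overlapped at 0.31 ± 0.22 (SE; edgeR, adjusted p = 0.413). Lamb2 was called in 6 of the 22 alternatives, among them DESeq2 (adjusted p = 0.0285) and limma-voom (adjusted p = 0.0385). By TPM, Lamb1 made up 42.3 ± 5.58% of the β chains in p18mKO2+ libraries and 18.8 ± 3.45% in p18mKO2- libraries (SD, n = 3 each), with ranges of 36.2 to 47.1% and 15.2 to 22.1% that did not touch. The length of Lamb2 moved with this share, at 2714, 4135 and 2932 bases in p18mKO2+ and 2652, 2218 and 2004 bases in p18mKO2- libraries, and its part in the share was not tested. Lamc1 had 61.8, 52.7 and 41.5 CPM in p18mKO2+ libraries, against 64.8, 47.9 and 39.7 CPM in p18mKO2- libraries, with overlap and a log2 fold change of 0.03 ± 0.23 (SE; edgeR, adjusted p = 0.956). It supplied 91.0 to 96.9% of the γ chain TPM in every one of the 12 libraries.

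Fibrillar collagens leaned downward, with 10 of 11 negative fold changes and a median of -0.63 on the log2 scale. Of the 11, 2 were called as lower, against 3.49% of all genes. Beside them, the summed markers of meninges and fibroblasts were 209, 154 and 169 CPM in p18mKO2+ libraries and 308, 213 and 210.2 CPM in p18mKO2- libraries, and their part was not tested. Igf2 alone gave 127.5, 98.5 and 90.2 CPM of the p18mKO2+ sums and 163.5, 108 and 84.9 CPM of the p18mKO2- sums. Col5a1 (ENSMUSG00000026837, GRCm38 chromosome 2, 27886425 to 28039514, plus strand), a minor chain that limits fibril width, had 16.1, 13.1 and 13.2 CPM in p18mKO2+ libraries, against 40.7, 33.1 and 24.3 CPM in p18mKO2- libraries. Its log2 fold change was -1.21 ± 0.28 (SE; edgeR, adjusted p = 0.0148). Leaving out replicate 3 of E13.5 p18mKO2+, the library with the high Cajal-Retzius markers, ended the call (adjusted p = 0.0571 by edgeR), as did leaving out replicate 1 of E13.5 p18mKO2- (adjusted p = 0.0604 by edgeR). Col5a1 also did not overlap by TPM, at 5, 4.75 and 3.38 TPM in p18mKO2+ and 17.6, 14.5 and 10.2 TPM in p18mKO2- libraries. Its RSEM length was 5585, 4655 and 7076 bases in p18mKO2+ libraries, against 3749, 3667 and 3596 bases in p18mKO2- libraries.

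Col2a1 (ENSMUSG00000022483, GRCm38 chromosome 15, 97975602 to 98004695, minus strand) is the main collagen of cartilage and is also expressed for a time in the embryonic neuroepithelium. It had 86.3, 86.2 and 93.6 CPM in p18mKO2+ libraries, against 161, 166 and 201 CPM in p18mKO2- libraries, again without overlap. Its log2 fold change was -0.99 ± 0.26 (SE; edgeR, adjusted p = 0.0271). The call rested on the full set of libraries. Leaving out any of the 6 E13.5 libraries ended it, with edgeR adjusted p-values of 0.051 to 0.0999 and log2 fold changes of -0.88 to -1.06. It also ended with the level of the ribosomal RNA gene CT010467.1 as a covariate (edgeR adjusted p = 0.124). The type I and III collagens of connective tissue were not called in the fit without that covariate. Col1a1 had 30.2, 17.4 and 27.5 CPM in p18mKO2+ libraries, against 49.2, 24.9 and 42.5 CPM in p18mKO2- libraries. Col1a2, its partner chain, had 35.7, 19.3 and 26.5 CPM in p18mKO2+ libraries, against 38.1, 33.2 and 35.2 CPM in p18mKO2- libraries. Col3a1, which is also a ligand of the receptor Adgrg1 at the pial basement membrane, had 55.4, 28.9 and 58.6 CPM in p18mKO2+ libraries, against 90.9, 55.2 and 74.3 CPM in p18mKO2- libraries. All 3 overlapped between the groups, and their log2 fold changes were -0.63, -0.39 and -0.63. With the ribosomal RNA gene as a covariate Col1a1 and Col3a1 were called, at -1.29 (edgeR, adjusted p = 0.049) and -1.32 (edgeR, adjusted p = 0.0097), and Col3a1 was also called with no filter on low counts, at -0.61 (edgeR, adjusted p = 0.0412). At E13.5 the ribosomal RNA gene took 42640, 65840 and 26190 CPM in p18mKO2+ libraries, against 52440, 79490 and 87990 CPM in p18mKO2- libraries, and these overlapped. At E16.5 it took 26160, 16650 and 39640 CPM in p18mKO2+ libraries, against 152000, 87180 and 70620 CPM in p18mKO2- libraries, without overlap. Col18a1, a basement membrane collagen whose C-terminal fragment is endostatin, had 47.4, 35.3 and 33.8 CPM in p18mKO2+ libraries, against 76.2, 79.6 and 57.8 CPM in p18mKO2- libraries. It did not overlap and stood just outside the threshold at -0.88 ± 0.27 (SE; edgeR, adjusted p = 0.0521). Col18a1 was called in 8 of the 22 alternatives, among them DESeq2 (adjusted p = 0.0152) and limma-voom (adjusted p = 0.0191).

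Fibril-associated collagens leaned the other way, with 7 of 9 positive fold changes and a median of 0.69. Col9a3 (ENSMUSG00000027570, GRCm38 chromosome 2, 180597790 to 180622189, plus strand), the α3 chain of the collagen IX that coats collagen II fibrils, had 15.8, 22.1 and 10.6 CPM in p18mKO2+ libraries, against 4.41, 8.46 and 10.1 CPM in p18mKO2- libraries. The closest libraries were nearly level, at 10.6 CPM in p18mKO2+ replicate 3 and 10.1 CPM in p18mKO2- replicate 3. Its log2 fold change was 1.08 ± 0.31 (SE; edgeR, adjusted p = 0.0393). The Col9a3 call ended in 12 of the 22 alternatives, with edgeR adjusted p-values of 0.0935 without replicate 1 and 0.137 without replicate 2 of E13.5 p18mKO2+, and 0.125 without replicate 1 and 0.0768 without replicate 2 of E13.5 p18mKO2-. It also ended without any 1 of the E16.5 p18mKO2+ libraries (0.0579, 0.0539 and 0.0572) and without replicate 2 of E16.5 p18mKO2- (0.0514), and with the ribosomal RNA gene as a covariate (0.0574). Its collagen IX partners Col9a1 and Col9a2 were not called, at -0.71 and 0.20 on the log2 scale. Col12a1, a collagen that binds type I fibrils, had 9.45, 6.35 and 4.74 CPM in p18mKO2+ libraries, against 2.65, 7.49 and 1.29 CPM in p18mKO2- libraries, with overlap.

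The count of 5 depended on single libraries. It was 3 without replicate 1, 2 or 3 of E13.5 p18mKO2+ or without replicate 1 of E13.5 p18mKO2-, and 8 without replicate 3 of E16.5 p18mKO2-, which enters through the shared estimate of spread. Fn1 and Lama1 were called in each of these fits.

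**Figure D2:**
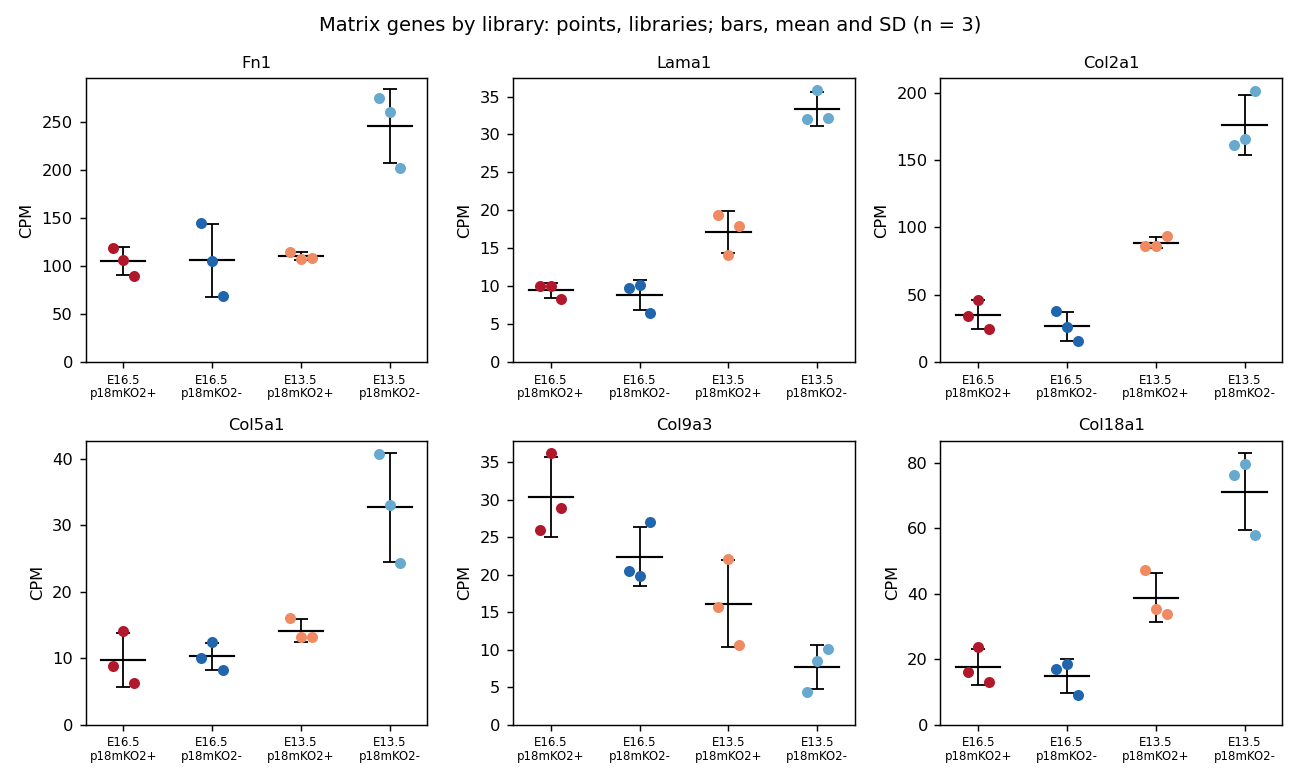
CPM of Fn1, Lama1, Col2a1, Col5a1, Col9a3 and Col18a1 (y axes from 0) in each library (points), with group means and SD (bars, n = 3), from left to right E16.5 p18mKO2+, E16.5 p18mKO2-, E13.5 p18mKO2+ and E13.5 p18mKO2-. For Fn1 the E13.5 p18mKO2+ libraries, at 108 to 115 CPM, sit with both E16.5 groups, below the E13.5 p18mKO2- libraries at 202 to 275 CPM.

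The remaining genes of the group were low or did not differ past the threshold at E13.5. None of the 12 beaded-filament, short-chain and anchoring collagens and none of the 4 transmembrane collagens was called. Col8a1, a short-chain collagen of vessel and corneal matrix, had 1.45, 1.01 and 2.05 CPM in p18mKO2+ libraries, against 0, 0.109 and 0.409 CPM in p18mKO2- libraries, without overlap and with a log2 fold change of 3.10 ± 0.95 (SE; edgeR, adjusted p = 0.0521). Col6a5, a collagen VI chain, had 35 counts over the 3 p18mKO2+ libraries and 0 over the 3 p18mKO2- libraries, and its fitted fold change depends on the prior count. Among the 4 untested genes, Lamb3 had 23 counts over the E13.5 p18mKO2+ libraries and 0 over the E13.5 p18mKO2- libraries, Col10a1 had 2 counts in all 12 libraries, Col6a6 had 34 and Col6a4 had 72.

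Collagen IV is encoded by 6 genes that lie head to head in pairs. In the annotation the starts of Col4a1 and Col4a2 on chromosome 8 overlap by 22 bases, those of Col4a4 and Col4a3 on chromosome 1 are 72 bases apart, and those of Col4a6 and Col4a5 on chromosome X are 1309 bases apart. Promoter windows of 250 bases before to 50 bases after the RefSeq start (GRCm38.p6) are shown for the pair of abundant collagen IV genes, for the 2 collagen IV genes that changed with stage, and for Col5a1, which was called in the p18 comparison. A total of 43 of the 60 genes had a window in that table. Capitals mark the GC box GGGCGG and the CCAAT box on either strand.
Col4a1, GRCm38.p6 chr8:11312777-11313076 (minus strand): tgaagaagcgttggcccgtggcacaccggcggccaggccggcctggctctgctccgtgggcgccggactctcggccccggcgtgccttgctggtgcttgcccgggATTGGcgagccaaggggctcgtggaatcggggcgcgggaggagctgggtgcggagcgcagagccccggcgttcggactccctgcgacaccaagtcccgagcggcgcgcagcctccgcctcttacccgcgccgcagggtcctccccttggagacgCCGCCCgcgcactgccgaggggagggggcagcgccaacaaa
Col4a2, GRCm38.p6 chr8:11312555-11312854 (plus strand): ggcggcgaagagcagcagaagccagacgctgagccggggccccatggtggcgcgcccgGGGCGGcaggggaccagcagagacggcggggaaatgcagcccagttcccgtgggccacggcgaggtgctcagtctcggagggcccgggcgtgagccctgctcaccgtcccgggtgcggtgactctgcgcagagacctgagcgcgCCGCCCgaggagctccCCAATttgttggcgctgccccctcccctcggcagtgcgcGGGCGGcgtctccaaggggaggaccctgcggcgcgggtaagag
Col4a4, GRCm38.p6 chr1:82586800-82587099 (minus strand): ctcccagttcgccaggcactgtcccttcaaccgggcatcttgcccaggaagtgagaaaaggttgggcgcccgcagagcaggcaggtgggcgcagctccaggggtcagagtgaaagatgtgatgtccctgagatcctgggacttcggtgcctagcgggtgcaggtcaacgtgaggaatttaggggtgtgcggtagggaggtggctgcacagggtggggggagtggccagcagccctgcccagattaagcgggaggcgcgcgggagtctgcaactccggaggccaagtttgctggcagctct
Col4a5, GRCm38.p6 chrX:141475169-141475468 (plus strand): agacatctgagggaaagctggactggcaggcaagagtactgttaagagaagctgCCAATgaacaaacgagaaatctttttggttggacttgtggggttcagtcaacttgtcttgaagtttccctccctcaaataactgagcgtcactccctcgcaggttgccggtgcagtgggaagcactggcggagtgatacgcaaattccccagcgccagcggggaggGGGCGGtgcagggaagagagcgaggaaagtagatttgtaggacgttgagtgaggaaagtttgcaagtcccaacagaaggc
Col5a1, GRCm38.p6 chr2:27886175-27886474 (plus strand): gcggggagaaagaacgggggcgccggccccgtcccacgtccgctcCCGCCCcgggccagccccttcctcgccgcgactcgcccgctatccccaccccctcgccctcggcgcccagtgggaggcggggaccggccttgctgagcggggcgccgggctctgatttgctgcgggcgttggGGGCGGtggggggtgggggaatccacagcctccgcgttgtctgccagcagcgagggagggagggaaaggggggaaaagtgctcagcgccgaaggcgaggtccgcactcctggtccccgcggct

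The Col4a1 and Col4a2 windows share 78 bases, read on opposite strands. GGGCGG, on either strand, occurred in 30 of the 48 windows of matrix genes (62.5%), against 35.7% of the 32851 windows in the table, and CCAAT in 31.2%, against 37.4%. TATAAA was found in 10.4% of matrix gene windows and 13.6% of all windows. The Col4a4 window held none of the motifs searched, which also included the cyclic AMP response element TGACGTCA and the E2F sites TTTCCCGC and TTTGGCGC. A match or its absence describes the letters of these windows and nothing of the binding of a factor.

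No collagen IV gene was called with the p18 label at either stage. Col4a1 at E13.5 had 123, 121 and 115 CPM in p18mKO2+ libraries, against 163, 143 and 97.9 CPM in p18mKO2- libraries. Col4a2 had 70.9, 73.2 and 66.7 CPM in p18mKO2+ libraries, against 93.5, 63.7 and 63.5 CPM in p18mKO2- libraries. Both overlapped between the groups, with log2 fold changes of -0.17 ± 0.21 (SE; edgeR, adjusted p = 0.687) and -0.07 ± 0.21 (SE; edgeR, adjusted p = 0.893). The CPM of Col4a1 was 1.42 to 2.24 times that of Col4a2 in the same library over the 12 libraries. In the stage comparison of p18mKO2-, 1 gene of each of 2 pairs was called, and the difference between head-to-head partners was not tested. Col4a4, a chain best known from the kidney filter, had 4.54, 4.38 and 2.55 CPM in E16.5 p18mKO2- libraries, against 1.35, 0.488 and 0.351 CPM in E13.5 p18mKO2- libraries, and rose by 2.37 ± 0.52 (SE; edgeR, adjusted p = 0.00358) on the log2 scale. In p18mKO2+ libraries it had 4.88, 6.94 and 4.05 CPM at E16.5, against 1.45, 2.51 and 1.83 CPM at E13.5, and was not called (1.45). Its head-to-head partner Col4a3 had 1.04, 0.661 and 0.464 CPM in E16.5 p18mKO2- libraries, against 1.298, 0.651 and 0 CPM in E13.5 p18mKO2- libraries, and was not called (0.14 ± 1.13, SE; edgeR, adjusted p = 0.942). Col4a5 had 11.5, 13.3 and 9.503 CPM in E16.5 p18mKO2- libraries, against 22.7, 18.8 and 22.5 CPM in E13.5 p18mKO2- libraries, and fell by 0.90 ± 0.23 (SE; edgeR, adjusted p = 0.0104) on the log2 scale. Its partner Col4a6 overlapped and was not called, at -0.63 ± 0.41 (SE; edgeR, adjusted p = 0.277), the same sign as Col4a5. Col4a5 and Col4a6 lie on the X chromosome, and 1 of the 3 E16.5 p18mKO2- libraries carried Y-linked transcripts, while none of the E13.5 p18mKO2- libraries did beyond 0.42 CPM.

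**Figure D3:**
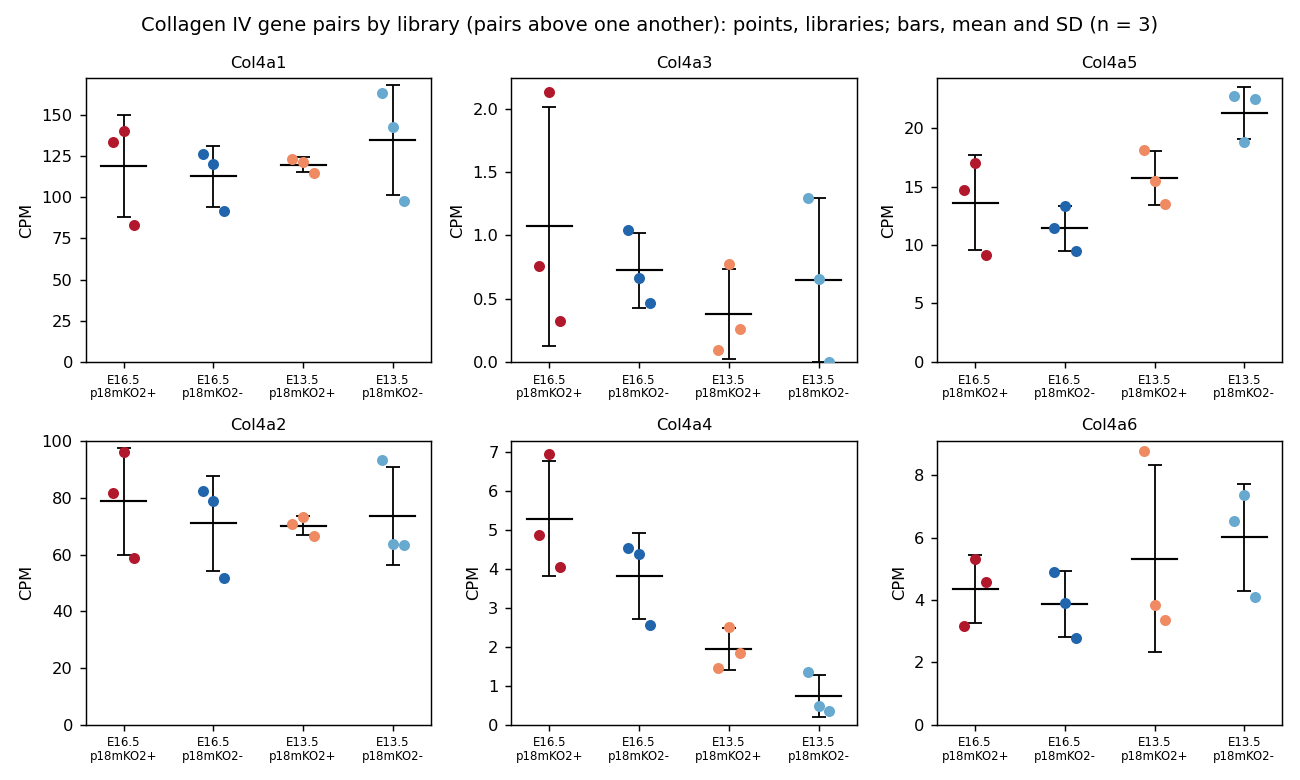
CPM of the 6 collagen IV genes in each library (points) with group means and SD (bars, n = 3), with head-to-head pairs above one another and groups from left to right E16.5 p18mKO2+, E16.5 p18mKO2-, E13.5 p18mKO2+ and E13.5 p18mKO2-. Col4a1 and Col4a2 overlap in all groups, Col4a4 is at least 2.55 CPM in every E16.5 library and at most 1.35 CPM in E13.5 p18mKO2- libraries, and Col4a5 is highest in E13.5 p18mKO2- libraries.

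The same p18 comparison at E16.5 gave no call. By edgeR, 0 of the 56 matrix genes and 0 of the 16798 genes tested (0.0%) passed, as with DESeq2 and limma-voom for the matrix genes, and 2 matrix genes (3.57%) had an unadjusted p under 0.05, against 2.54% of all genes. The median log2 fold change of the matrix genes was 0.14, against -0.01 for all genes, and 38 of the 56 were positive. The groups did not overlap in 4 genes (7.14%, against 7.95% of all genes). In 3 of them, among which were Col6a1 and Col17a1, p18mKO2+ lay above (5.36%, against 4.07%), and in Lamb1 it lay below (1.79%, against 3.88%). The genes that differed at E13.5 lay close together here. Fn1 had 118, 106 and 89.3 CPM in p18mKO2+ libraries, against 144, 105 and 68.3 CPM in p18mKO2- libraries. Lama1 had 10.02, 10.1 and 8.34 CPM in p18mKO2+ libraries, against 9.701, 10.1 and 6.49 CPM in p18mKO2- libraries. Col5a1 had 8.81, 14.1 and 6.26 CPM in p18mKO2+ libraries, against 10.01, 12.5 and 8.29 CPM in p18mKO2- libraries. In all 3 genes the groups overlapped, with log2 fold changes of -0.02, 0.11 and -0.08. Col2a1 had 34.1, 46.3 and 24.6 CPM in p18mKO2+ libraries, against 37.7, 25.7 and 15.9 CPM in p18mKO2- libraries. Col9a3 had 25.9, 36.3 and 28.9 CPM in p18mKO2+ libraries, against 20.5, 19.8 and 27.002 CPM in p18mKO2- libraries. Both overlapped, at 0.41 ± 0.27 (SE; edgeR, adjusted p = 1) and 0.44 ± 0.30 (SE; edgeR, adjusted p = 1).

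Of the laminin chains described here, Lamb1 did not overlap at E16.5. It had 38.2, 39.4 and 30.8 CPM in p18mKO2+ libraries, against 41.6, 41.3 and 48.3 CPM in p18mKO2- libraries, with each p18mKO2+ library below each p18mKO2- library and a log2 fold change of -0.28 ± 0.22 (SE; edgeR, adjusted p = 1). Lamb2 had 21.4, 21.5 and 15.3 CPM in p18mKO2+ libraries, against 24.7, 22.1 and 9.62 CPM in p18mKO2- libraries. Lamc1 had 68.7, 74.6 and 58.6 CPM in p18mKO2+ libraries, against 75.03, 65.6 and 42.9 CPM in p18mKO2- libraries. The β1 chain, which at E13.5 differed in its share of β chain TPM, held 49.9 ± 3.15% in p18mKO2+ and 56.9 ± 11.6% in p18mKO2- libraries (SD, n = 3 each), with overlap. Lama2 had 6.19, 7.39 and 7.74 CPM in p18mKO2+ libraries, against 8.17, 4.63 and 5.91 CPM in p18mKO2- libraries. Lama4 had 17.5, 18.3 and 15.6 CPM in p18mKO2+ libraries, against 17.5, 15.5 and 11.6 CPM in p18mKO2- libraries. Lama5 had 14.1, 14.3 and 8.38 CPM in p18mKO2+ libraries, against 15.3, 11.7 and 6.49 CPM in p18mKO2- libraries. None of these α chains separated the groups.

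Collagen IV and the linkers at E16.5 spread as widely within the groups as between them. Col4a1 had 134, 140.0 and 83.2 CPM in p18mKO2+ libraries, against 126, 120.3 and 91.4 CPM in p18mKO2- libraries. Col4a2 had 81.6, 96.2 and 58.8 CPM in p18mKO2+ libraries, against 82.5, 78.95 and 51.7 CPM in p18mKO2- libraries. Agrn had 362, 329.8 and 303 CPM in p18mKO2+ libraries, against 382, 289.8 and 257 CPM in p18mKO2- libraries. In each of these 3 genes replicate 3 was the lowest library of both groups. Nid1 had 39.5, 43.996 and 30.6 CPM in p18mKO2+ libraries, against 33.5, 31.998 and 29.3 CPM in p18mKO2- libraries. Nid2 had 16.6, 25.7 and 14.5 CPM in p18mKO2+ libraries, against 17.9, 18.01 and 14.02 CPM in p18mKO2- libraries. Hspg2 had 25.4, 32.5 and 19.9 CPM in p18mKO2+ libraries, against 33.6, 26.7 and 13.6 CPM in p18mKO2- libraries. Replicate 3 was again the lowest of both groups for these linkers, and the groups overlapped.

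The connective-tissue collagens varied more within a group. Col1a1 had 11.2, 19.6 and 5.62 CPM in p18mKO2+ libraries, against 8.35, 18.8 and 12.9 CPM in p18mKO2- libraries. Col1a2 had 15.4, 27.4 and 8.94 CPM in p18mKO2+ libraries, against 12.9, 27.4 and 18.7 CPM in p18mKO2- libraries. Col3a1 had 18.1, 34.03 and 12.7 CPM in p18mKO2+ libraries, against 18.9, 37.03 and 30.1 CPM in p18mKO2- libraries. Replicate 2 was the highest library of both groups for these 3 genes, in parallel with the summed markers of meninges and fibroblasts, which were 173, 249 and 118 CPM in the p18mKO2+ libraries and 132, 203 and 139.6 CPM in the p18mKO2- libraries. Igf2 alone gave 120.5, 166 and 77.95 CPM of the p18mKO2+ sums and 88.5, 139 and 79.9 CPM of the p18mKO2- sums. The part of meninges and fibroblasts in the collagen values was not tested. Col18a1 had 15.96, 23.6 and 12.9 CPM in p18mKO2+ libraries, against 17.1, 18.4 and 9.04 CPM in p18mKO2- libraries. Col12a1 had 26.4, 28.7 and 20.96 CPM in p18mKO2+ libraries, against 35.7, 28.3 and 11.8 CPM in p18mKO2- libraries. Both overlapped. Col6a1, a chain of the beaded-filament collagen VI, had 4.38, 8.04 and 2.99 CPM in p18mKO2+ libraries, against 2.15, 2.24 and 2.26 CPM in p18mKO2- libraries. It did not overlap, and its log2 fold change of 1.21 ± 0.41 (SE; edgeR, adjusted p = 1) was not called. Replicate 2 of p18mKO2+, the library with the high choroid plexus and hem markers, was the highest in Col6a1.

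The third comparison followed stage in p18mKO2- tissue, E16.5 against E13.5. Matrix genes changed in 20 of 56 cases (35.7%, against 29.8% of all genes tested), and mostly downward. A total of 16 fell (28.6%, against 13.4% of all genes) and 4 rose (7.14%, against 16.4%). The median log2 fold change was -0.44, against -0.02 over all genes, and 32 genes did not overlap between the stages (57.1%, against 40.4%), 22 with E16.5 below (39.3%, against 19.4%) and 10 with it above (17.9%, against 21.0%). The libraries E13.5 p18mKO2- are shared with the p18 comparison at E13.5, so the comparisons are not independent and their values are only set side by side.

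Among the fibrillar collagens, 7 of 11 were called as lower with stage, against 13.4% of all genes. Col2a1 averaged 26.4 ± 10.9 CPM at E16.5 and 176 ± 22.1 CPM at E13.5 (SD, n = 3 each), the largest fall among the called genes above 1 CPM in both stages, with a log2 fold change of -2.74 ± 0.28 (SE; edgeR, adjusted p = 1.21e-05). Col5a1 averaged 10.2 ± 2.099 CPM at E16.5 and 32.7 ± 8.19 CPM at E13.5, a change of -1.67 ± 0.29 (SE; edgeR, adjusted p = 0.000622). Col3a1, Col1a1, Col5a2, Col27a1 and Col11a2 fell by between 1.01 and 1.54 on the log2 scale. Their edgeR adjusted p-values were 0.0106 to 0.0223, and no E16.5 library of these 5 genes reached the lowest E13.5 library. The Col11a2 call ended without replicate 2 of E13.5 p18mKO2- (adjusted p = 0.0699 by edgeR) and without replicate 1 (0.0501) or 2 (0.0848) of E16.5 p18mKO2-. The Col27a1 call ended without replicate 3 of E13.5 p18mKO2- (edgeR, 0.057).

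Among the transcripts of basement membrane components, the falls were in particular chains. Col18a1 averaged 14.8 ± 5.07 CPM at E16.5 and 71.2 ± 11.7 CPM at E13.5, with a log2 fold change of -2.26 ± 0.28 (SE; edgeR, adjusted p = 5.21e-05). Lama1 averaged 8.77 ± 1.99 CPM at E16.5 and 33.4 ± 2.21 CPM at E13.5, a change of -1.93 ± 0.21 (SE; edgeR, adjusted p = 1.78e-05). By TPM too, Lama1 was lower at E16.5 without overlap, at 1.84, 1.93 and 0.9 TPM against 5.92, 5.85 and 4.93 TPM. Lamb2 averaged 18.8 ± 8.07 CPM at E16.5 and 47.7 ± 5.83 CPM at E13.5, a change of -1.34 ± 0.28 (SE; edgeR, adjusted p = 0.00233). The linkers Fn1, Hspg2 and Nid2 fell, at -1.21 ± 0.22 (SE; edgeR, adjusted p = 0.000907), -1.33 ± 0.30 (SE; edgeR, adjusted p = 0.00464) and -1.03 ± 0.23 (SE; edgeR, adjusted p = 0.00363) on the log2 scale. By TPM the stages overlapped for Hspg2 and Nid2. Hspg2 had 10.15, 9.15 and 3.94 TPM at E16.5, against 30.58, 21.58 and 9.61 TPM at E13.5. Nid2 had 7.03, 11.62 and 4.45 TPM at E16.5, against 14.99, 10.93 and 19.02 TPM at E13.5. Nid1 and Agrn were not called, at -0.39 and -0.27. The most abundant laminin and collagen IV chains, Lamc1, Col4a1 and Col4a2, were not called either, at 0.27, -0.26 and -0.05. Col6a1 fell by 1.65 ± 0.41 (SE; edgeR, adjusted p = 0.00817) on the log2 scale.

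The 4 genes that rose with stage were Col4a4 and 3 fibril-associated collagens. Col12a1 averaged 25.3 ± 12.3 CPM at E16.5 and 3.81 ± 3.26 CPM at E13.5, with a log2 fold change of 2.72 ± 0.53 (SE; edgeR, adjusted p = 0.00158). Col9a3 averaged 22.4 ± 3.97 CPM at E16.5 and 7.67 ± 2.94 CPM at E13.5, a change of 1.55 ± 0.31 (SE; edgeR, adjusted p = 0.0019). Col19a1, a rare fibril-associated collagen, had 2.03, 1.88 and 0.579 CPM at E16.5, against 0.311, 0 and 0 CPM at E13.5. Its call rested on 80 counts over the E16.5 libraries and 6 over the E13.5 libraries, and it ended without replicate 2 (edgeR adjusted p = 0.076) or 3 (0.075) of E13.5 p18mKO2- and without replicate 1 (0.0766) or 2 (0.0695) of E16.5 p18mKO2-. Col17a1, a transmembrane collagen of skin attachment, was called as lower, and the call ended without replicate 2 of E13.5 p18mKO2-, which held 4.67 CPM, with a log2 fold change of -2.05 in its place of -3.78 (edgeR adjusted p = 0.245). It also ended without replicate 1 (0.0595) or 2 (0.0688) of E16.5 p18mKO2-.

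**Figure D4:**
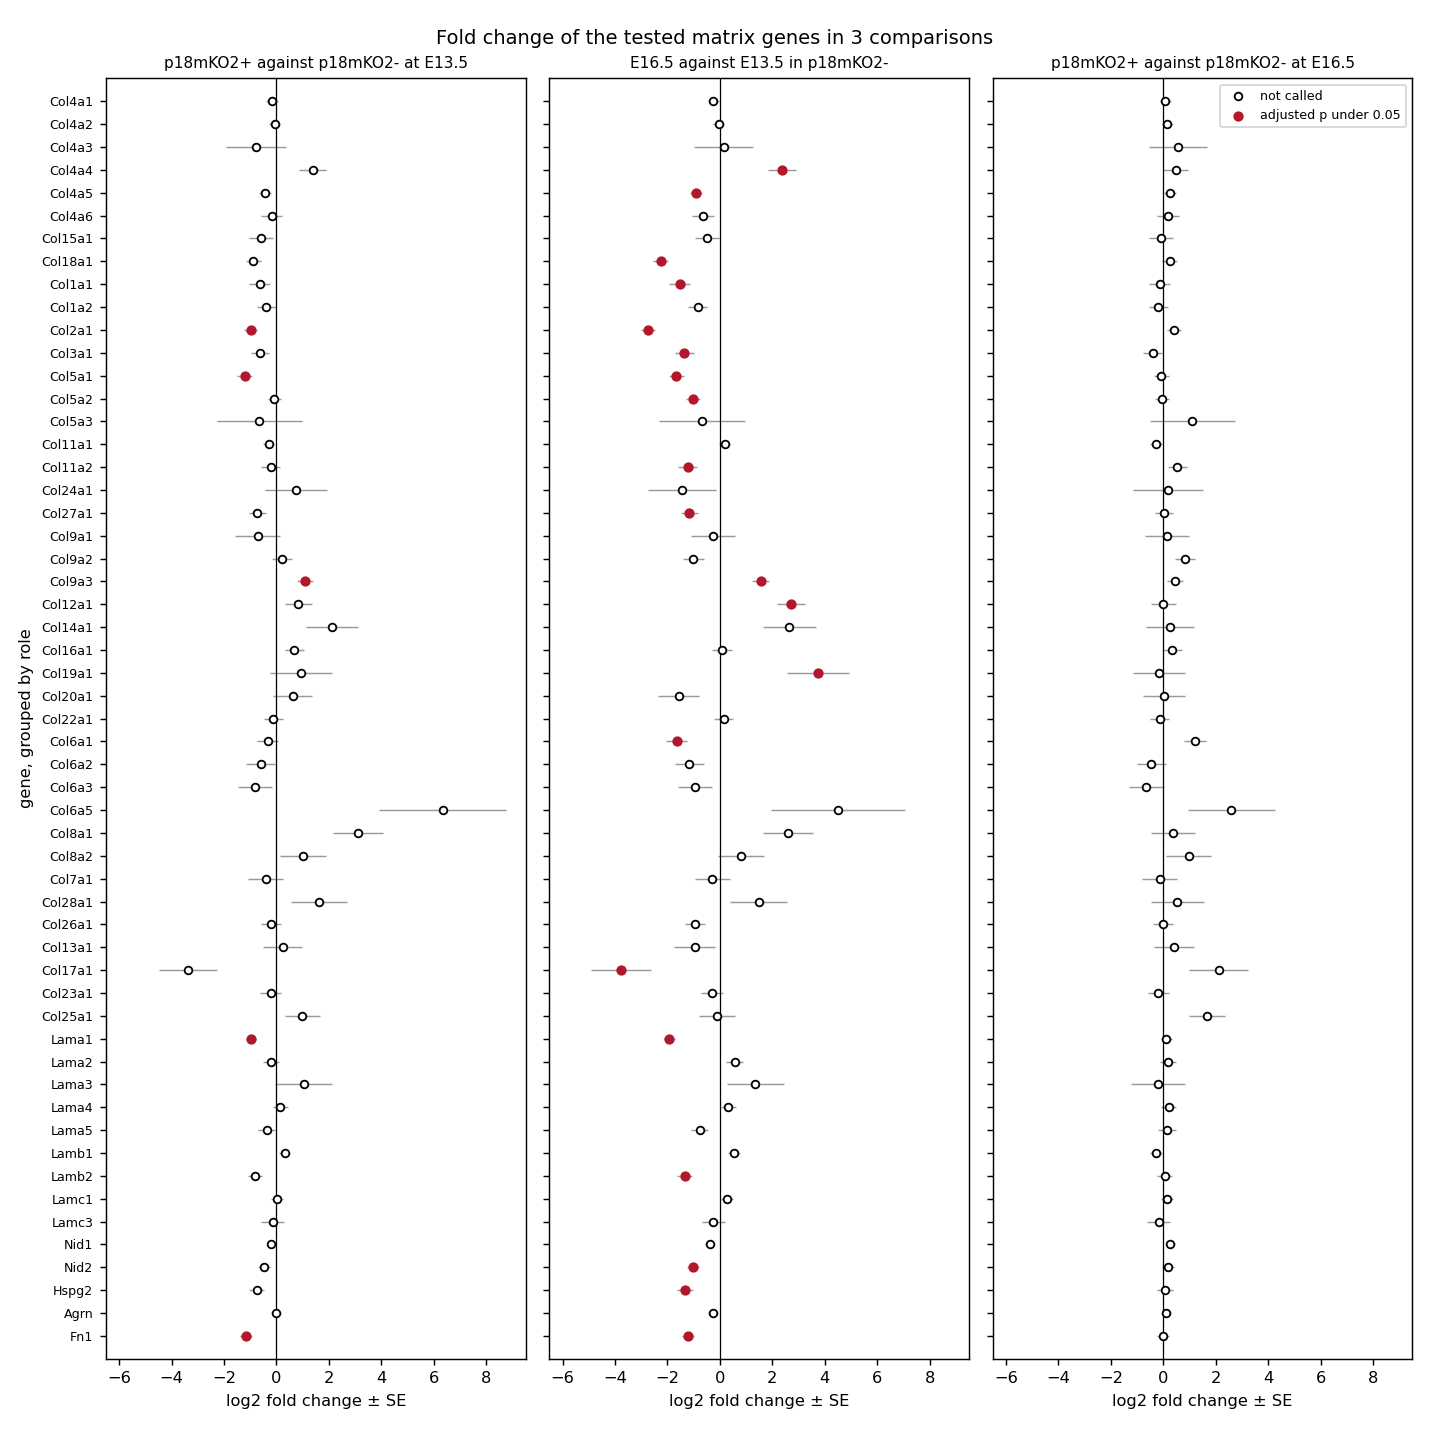
Log2 fold change ± SE (x axis) of 55 of the 56 tested matrix genes (y axis, grouped by role) for p18mKO2+ against p18mKO2- at E13.5, E16.5 against E13.5 in p18mKO2-, and p18mKO2+ against p18mKO2- at E16.5, with filled points at an adjusted p under 0.05. There are 5 filled points at left, 20 in the middle and 0 at right, and the left and middle panels share the E13.5 p18mKO2- libraries. The Col6a5 points at left and in the middle are set against a group with 0 counts and depend on the prior count.

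In p18mKO2+ tissue the same stage comparison called 1 of 56 matrix genes (1.79%, against 1.64% of all genes), and that gene was lower, as were 0.554% of all genes. Col2a1 had 34.1, 46.3 and 24.6 CPM in E16.5 p18mKO2+ libraries, against 86.3, 86.2 and 93.6 CPM in E13.5 p18mKO2+ libraries, and fell without overlap by 1.34 ± 0.27 (SE; edgeR, adjusted p = 0.0235) on the log2 scale. The call ended, with edgeR adjusted p-values of 0.0818 and 0.0553, without replicate 1 or 2 of E13.5 p18mKO2+, and of 0.149 and 0.138 without replicate 1 or 3 of E16.5 p18mKO2+. In the fit without replicate 2 of E13.5 p18mKO2+ Col5a2 was called instead. With the ribosomal RNA gene as a covariate Col2a1 was not called (edgeR adjusted p = 0.0728), and Col1a1, Col3a1 and Col5a2 were. The count was 2 without replicate 2 or 3 of E13.5 p18mKO2- or without replicate 2 of E16.5 p18mKO2+, and 4 without replicate 3 of E16.5 p18mKO2-. Lama1 and Col18a1 lay at the edge of the threshold and were called in 7 and 8 of the 22 alternatives. Lama1 had 10.02, 10.1 and 8.34 CPM at E16.5, against 19.4, 14.1 and 17.9 CPM at E13.5, a change of -0.85 ± 0.20 (SE; edgeR, adjusted p = 0.0502). Col18a1 had 15.96, 23.6 and 12.9 CPM at E16.5, against 47.4, 35.3 and 33.8 CPM at E13.5, a change of -1.15 ± 0.27 (SE; edgeR, adjusted p = 0.0505). Neither gene overlapped between the stages. Fn1 did not separate the stages here, at -0.07 ± 0.22 (SE; edgeR, adjusted p = 0.927).

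Whether the p18 difference itself changed between the stages was tested with an interaction term, the effect at E16.5 minus the effect at E13.5. By edgeR 0 of 56 matrix genes were called, against 2.7% of all genes (0.298% with a higher and 2.4% with a lower effect at E16.5), and 9 (16.1%) had an unadjusted p under 0.05, against 16.4% of all genes. Lama1 came closest, with a difference of 1.07 ± 0.28 (SE; edgeR, adjusted p = 0.0647) on the log2 scale, followed by Col2a1 at 1.40 ± 0.37 (SE; edgeR, adjusted p = 0.0657) and Fn1 at 1.14 ± 0.31 (SE; edgeR, adjusted p = 0.0668). DESeq2 called these 3 genes and limma-voom called Col2a1. Over all genes DESeq2 called 1108 and limma-voom 391, against 453 in the edgeR fit. Without replicate 1 of E16.5 p18mKO2- the count was 2, Col2a1 and Fn1. EdgeR called 6 matrix genes with no filter on low counts and 2, Lama1 and Fn1, among genes at a mean of 5 CPM or more. In the edgeR fit reported here no matrix gene passed this test of the difference between stages, and with these other settings some did.

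Enzymes and partners of the matrix were read out from 5 further lists. At E16.5 no gene of these lists was called with the p18 label. Of 29 tested enzymes of collagen biosynthesis and cross-linking, 2 rose (6.9%, against 7.29% of all genes) and 3 fell (10.3%, against 3.49%) at E13.5, with a median log2 fold change of -0.24. P3h2, a prolyl 3-hydroxylase of collagen chains, had 2.42, 2.01 and 1.32 CPM in p18mKO2+ libraries, against 18.7, 20.8 and 10 CPM in p18mKO2- libraries. Its log2 fold change was -3.10 ± 0.50 (SE; edgeR, adjusted p = 0.00205), and the difference of its effect between stages was 3.77 ± 0.71 (SE; edgeR, adjusted p = 0.0146). Plod2, a lysyl hydroxylase that prepares cross-links, fell by 1.07 ± 0.20 (SE; edgeR, adjusted p = 0.0051), Serpinh1, the collagen chaperone HSP47, fell by 0.69 ± 0.17 (SE; edgeR, adjusted p = 0.0185), and Adamts3, a procollagen N-proteinase, rose by 1.65 ± 0.38 (SE; edgeR, adjusted p = 0.0149) on the log2 scale. With stage in p18mKO2-, 4 of the 29 rose (13.8%, against 16.4% of all genes) and 7 fell (24.1%, against 13.4%). Adamts2, the other main procollagen N-proteinase, had 16.4, 16.4 and 15.3 CPM in E16.5 p18mKO2- libraries, against 0.571, 0.108 and 0.702 CPM in E13.5 p18mKO2- libraries, and rose by 5.11 ± 0.47 (SE; edgeR, adjusted p = 5.19e-06). In p18mKO2+ it was the 1 enzyme of the list that was called with stage, at 3.33 ± 0.41 (SE; edgeR, adjusted p = 0.00128). In p18mKO2- tissue P3h2 fell by 4.03 ± 0.54 (SE; edgeR, adjusted p = 8.64e-05), Serpinh1 fell by 1.27 ± 0.17 (SE; edgeR, adjusted p = 9.72e-05) and Adamts3 rose by 2.34 ± 0.39 (SE; edgeR, adjusted p = 0.000499).

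Of 27 tested matrix receptors, 1 rose (3.7%, against 7.29% of all genes) and 2 fell (7.41%, against 3.49%) at E13.5, with a median of 0.10. Sdc3, the neural heparan sulphate proteoglycan syndecan 3, had 198, 147 and 235 CPM in p18mKO2+ libraries, against 105, 75.9 and 78.4 CPM in p18mKO2- libraries, a change of 1.16 ± 0.19 (SE; edgeR, adjusted p = 0.00226). Itga6, a laminin-binding integrin subunit, had 55.3, 58.97 and 43.6 CPM in p18mKO2+ libraries, against 102, 89.2 and 77.03 CPM in p18mKO2- libraries, a change of -0.76 ± 0.15 (SE; edgeR, adjusted p = 0.00604). Lrp4, the agrin receptor, fell by 1.06 ± 0.22 (SE; edgeR, adjusted p = 0.00891). For Sdc3 and Itga6 the p18 effect differed between the stages, by -1.16 ± 0.27 (SE; edgeR, adjusted p = 0.0358) and 0.95 ± 0.21 (SE; edgeR, adjusted p = 0.0313). With stage in p18mKO2-, 2 receptors rose (7.41%, against 16.4% of all genes) and 6 fell (22.2%, against 13.4%). Sdc3 was higher at E16.5 (1.70), and Itga6 (-1.03), Lrp4 (-1.37) and Sdc1 (-0.94) were lower, on the log2 scale.

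The 16 genes of dystroglycan glycosylation, which builds the sugar chain that binds laminin, had a median log2 fold change of 0.01 for the p18 label at E13.5 and of -0.01 with stage in p18mKO2-. With stage in p18mKO2-, B3galnt2 and Pomt1, enzymes of this pathway, fell by 0.71 ± 0.19 (SE; edgeR, adjusted p = 0.0116) and 0.56 ± 0.17 (SE; edgeR, adjusted p = 0.0282) on the log2 scale.

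Of 33 tested other linkers, 3 rose (9.09%, against 7.29% of all genes) and 2 fell (6.06%, against 3.49%) at E13.5, with a median of -0.04. Tnc, the extracellular glycoprotein tenascin C, had 81.8, 75.4 and 43.5 CPM in p18mKO2+ libraries, against 16.6, 15.8 and 16.6 CPM in p18mKO2- libraries, a change of 2.04 ± 0.22 (SE; edgeR, adjusted p = 0.000127). Tnr, the neural tenascin R, and Smoc1, a calcium-binding basement membrane protein, rose by 2.13 ± 0.48 (SE; edgeR, adjusted p = 0.0122) and 1.04 ± 0.23 (SE; edgeR, adjusted p = 0.0105), and Ltbp1, which tethers latent TGF-β to matrix, fell by 1.38 ± 0.41 (SE; edgeR, adjusted p = 0.0443). With stage in p18mKO2- 6 rose (18.2%, against 16.4% of all genes) and 5 fell (15.2%, against 13.4%), led by Tnc at 4.01 ± 0.23 (SE; edgeR, adjusted p = 1.23e-07), and Tnr, Smoc1 and Fbln1, the matrix protein fibulin 1, changed by 3.53, 1.29 and -1.10. Tnc was also the 1 linker called with stage in p18mKO2+, at 2.15 ± 0.21 (SE; edgeR, adjusted p = 0.000349), and its p18 effect differed between the stages, at -1.86 ± 0.30 (SE; edgeR, adjusted p = 0.00572). Of 23 tested proteases and inhibitors, 1 rose (4.35%, against 7.29% of all genes) and 1 fell (4.35%, against 3.49%) at E13.5. These were the membrane-type metalloproteinase Mmp24, at 1.38 ± 0.20 (SE; edgeR, adjusted p = 0.00109), and the secreted protease Adamts20, at -1.58 ± 0.40 (SE; edgeR, adjusted p = 0.0232). With stage in p18mKO2- 4 of the 23 rose (17.4%, against 16.4% of all genes) and 4 fell (17.4%, against 13.4%), among them Mmp24 (1.999), Mmp16 (1.30), Adamts18 (1.32) and Adamts9 (-1.86). The p18 effect on Mmp24 differed between the stages by -1.31 ± 0.28 (SE; edgeR, adjusted p = 0.0244).

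Markers of cell types were read in the same groups, and some lists differed at E13.5 while others gave no call. At E13.5, 5 of 10 radial glia markers (50%) and 8 of 10 cell cycle markers (80%) fell in p18mKO2+, against 3.49% of all genes. Of 10 neuron markers 7 rose (70%, against 7.29% of all genes). Summed radial glia markers were 1567 to 2220 CPM in p18mKO2+ libraries and 2555 to 2920 CPM in p18mKO2- libraries. Summed cell cycle markers were 1495 to 2041 CPM in p18mKO2+ and 3094 to 3267 CPM in p18mKO2- libraries. Summed neuron markers were 4805 to 5894 CPM in p18mKO2+ and 2218 to 2641 CPM in p18mKO2- libraries. Of the 14 markers of meninges and fibroblasts, 2 fell (14.3%, against 3.49% of all genes). The 12 endothelial markers summed to 154 to 169.6 CPM in p18mKO2+ and 134 to 175 CPM in p18mKO2- libraries. Of them 1 was called (8.33%, against 7.29% of all genes), Cldn5, which rose by 0.89 ± 0.20 (SE; edgeR, adjusted p = 0.0111) on the log2 scale. The 9 pericyte markers summed to 181 to 207 CPM in p18mKO2+ and 153 to 185 CPM in p18mKO2- libraries. Of them 1 was called (11.1%), Rgs5, which rose by 1.12 ± 0.16 (SE; edgeR, adjusted p = 0.000955). Notch3, a large part of the pericyte sum, lay lower in p18mKO2+ and was not called. All of these marker genes were detected. Other lists at E13.5 gave 2 lower calls among 8 erythroid markers (25%, against 3.49% of all genes), both of them globins of primitive red cells (Hba-x, Hbb-y). There were 2 lower calls among 6 intermediate progenitor markers (33.3%), and none among the microglia, choroid plexus and hem or Cajal-Retzius markers. Hbb-y had 92.01, 62.9 and 277 CPM in p18mKO2+ libraries, against 540.1, 532 and 566 CPM in p18mKO2- libraries, a log2 fold change of -1.92 ± 0.45 (SE; edgeR, adjusted p = 0.0147). Hba-x had 25.6, 20.1 and 75.7 CPM in p18mKO2+ libraries, against 168, 144 and 168 CPM in p18mKO2- libraries, a log2 fold change of -1.98 ± 0.41 (SE; edgeR, adjusted p = 0.00817). No E16.5 library exceeded 2.72 CPM in either globin, so the E13.5 p18mKO2+ libraries lay between the E13.5 p18mKO2- and the E16.5 libraries, and with stage in p18mKO2- Hbb-y and Hba-x fell by 8.69 ± 0.64 (SE; edgeR, adjusted p = 8.85e-07) and 6.48 ± 0.53 (SE; edgeR, adjusted p = 2.07e-06) on the log2 scale. The part of each cell type in the matrix results was not tested.

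With stage in p18mKO2-, 8 of 10 radial glia markers fell (80%, against 13.4% of all genes) and 1 rose (10%, against 16.4%). All 10 cell cycle markers fell (100%, against 13.4%). Radial glia markers summed to 1366 to 1887 CPM at E16.5 and 2555 to 2920 CPM at E13.5. All 10 neuron markers rose (100%, against 16.4% of all genes). Meninges and fibroblast markers fell in 4 of 14 cases (28.6%, against 13.4% of all genes). They summed to 132 to 203 CPM at E16.5 and 210.2 to 308 CPM at E13.5, with Igf2 as the largest single gene. Pericyte markers rose in 5 of 9 cases (55.6%, against 16.4% of all genes) and fell in 1 (11.1%, against 13.4%). Endothelial markers rose in 1 of 12 cases (8.33%, against 16.4% of all genes) and summed to 153 to 180.0 CPM at E16.5 and 134 to 175 CPM at E13.5. Their part in the matrix results was likewise not tested.

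**Figure D5:**
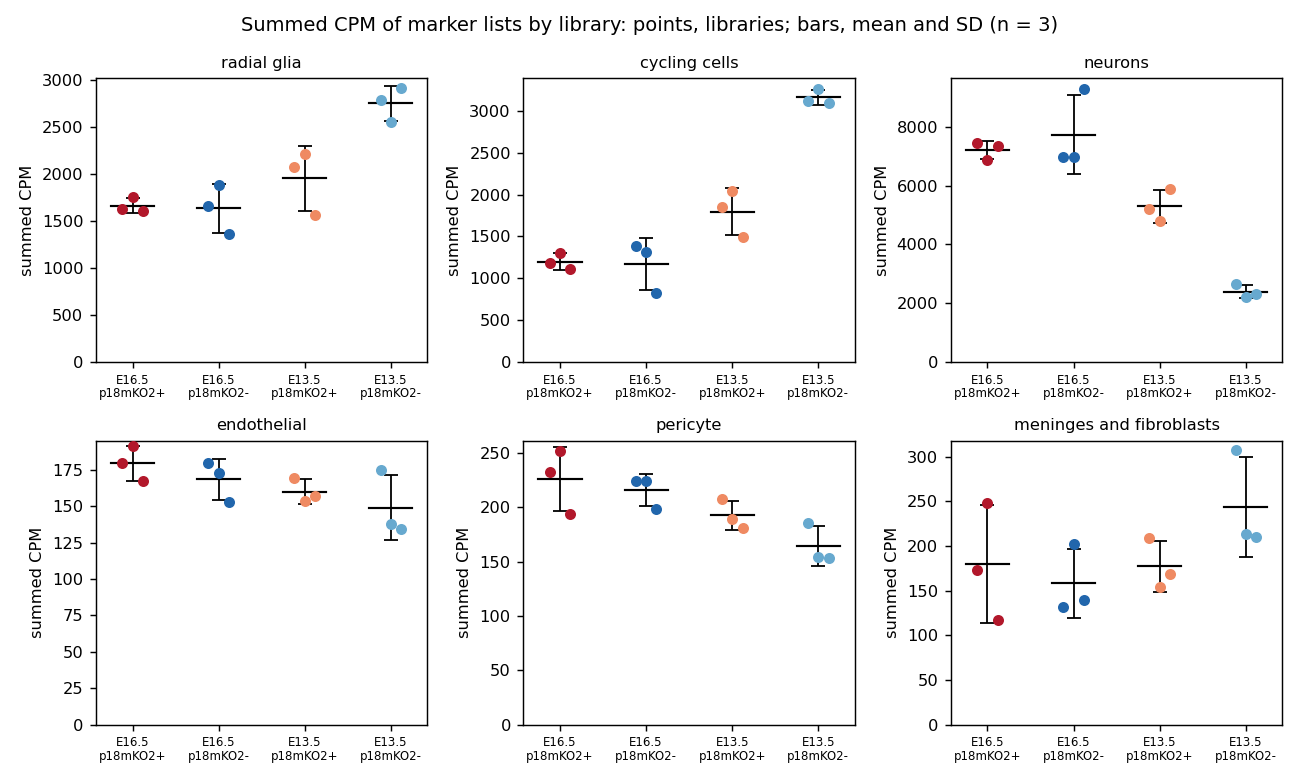
Summed CPM of 6 marker lists (y axes from 0) in each library (points) with group means and SD (bars, n = 3), with groups from left to right E16.5 p18mKO2+, E16.5 p18mKO2-, E13.5 p18mKO2+ and E13.5 p18mKO2-. The E13.5 p18mKO2- libraries are the highest for radial glia and cycling cells and the lowest for neurons, while endothelial sums overlap in all groups.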

How the data were processed

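Per the labels' protocols, libraries were built from polyadenylated RNA with a directional kit. Cutadapt 3.4, STAR 2.7.2b, RSEM 1.2.31 and the build GRCm38 (mm10) are named in the submitters' processing notes. Neither the annotation release nor the strand setting was given in these sources. Per the file headers, the deposited values of a gene are an expected count, in which reads that map to several genes are shared out, a TPM value and an average transcript length.

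Expected counts were rounded, scaled by TMM and fitted by edgeR 4.0.16 (R 4.3.3, quasi-likelihood) for 16798 genes that passed filterByExpr, with 1 mean per group over all 12 libraries and 8 residual degrees of freedom. A gene was called where its Benjamini-Hochberg adjusted p over all genes tested was under 0.05. CPM uses TMM-scaled library sizes. The pipeline was tested on simulated data. Gene names and coordinates come from GENCODE M21, in which 55141 of 55487 identifiers were found, and promoters from RefSeq GRCm38.p6.

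The alternatives were DESeq2 1.42.0, limma-voom (limma 3.58.1), RLE size factors, a fit with no filter or with genes at a mean of 5 CPM or more, a block for the replicate number, the compared groups alone, the level of the ribosomal RNA gene CT010467.1 as a covariate, and the leaving out of each library or of both libraries in which transcripts of both sexes were found. Y-linked expression as a covariate was added after seeing the data. The genes and lists were chosen with earlier results of these data known. Named with values in every library are the genes called in a p18 comparison, 18 core genes and the 10 called genes with the smallest p in each stage comparison, and from each pathway list the 4 called genes with the smallest p. Other genes that the text names were chosen after their values were seen. Some genes counted here are not reported by name. Counting error limits the precision of the rarest genes.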

Additional observations from a re-analysis of the deposited data

Results flagged for a closer look

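Col17a1, the transmembrane collagen of skin attachment, was lower in p18mKO2+ at E13.5 and higher in p18mKO2+ at E16.5, in each stage without overlap of the groups. It had 0.194, 0.183 and 0.171 CPM in E13.5 p18mKO2+ libraries, against 0.415, 4.67 and 0.760 CPM in E13.5 p18mKO2- libraries. At E16.5 it had 0.352, 0.496 and 0.967 CPM in p18mKO2+ libraries, against 0.184, 0 and 0.232 CPM in p18mKO2- libraries. The difference of the log2 fold changes was 5.48, and the interaction test by edgeR did not call it (Benjamini-Hochberg adjusted p = 0.0828). Over the groups these were 38, 7, 12 and 107 counts in E16.5 p18mKO2+, E16.5 p18mKO2-, E13.5 p18mKO2+ and E13.5 p18mKO2-, and the last group's sum rests largely on replicate 2.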

How the results depend on the processing

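Of 106 single-gene results, 26 were called and none of these changed sign under the 22 alternatives, and 18 of the 26 were called in every alternative run. Of the 80 that were not called, 33 changed sign in some alternative. For p18mKO2+ against p18mKO2- at E13.5 the count of 5 matrix genes became 10 with DESeq2, 12 with no filter, 8 with the replicate block and 3 with the Y-linked covariate, which was added after seeing the data, and ranged from 3 to 8 when each library was left out. For E16.5 against E13.5 in p18mKO2+ the count of 1 became 7 with DESeq2, 4 with limma-voom, 8 with no filter, 3 with a mean CPM of at least 5, 4 with the replicate block, 4 with the compared groups alone, 3 with the ribosomal RNA gene covariate, 0 with the Y-linked covariate and 0 without the libraries in which transcripts of both sexes were found, and ranged from 0 to 4 with each library left out. For the interaction of p18 label and stage the count of 0 became 3 with DESeq2, 1 with limma-voom, 6 with no filter, 2 with a mean CPM of at least 5 and 4 with the replicate block, and ranged from 0 to 2 with each library left out. The calls over all genes moved too. At E13.5 the 1810 calls for the p18 label became 2666 with DESeq2 and 957 with the Y-linked covariate. For stage in p18mKO2+ the 275 became 839 with DESeq2 and 405 with limma-voom. They became 206 with the ribosomal RNA gene covariate and 150 with the Y-linked covariate. For the interaction the 453 became 1108 with DESeq2 and 391 with limma-voom. The cause was not tested. The count for E16.5 against E13.5 in p18mKO2- ranged from 17 to 22 with each library left out, and that for the p18 label at E16.5 was 0 throughout.

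The sample titles number the replicates and do not say whether the numbers pair the samples. The fit reported here did not pair them, and whether same-numbered libraries share a batch is not known. Libraries with the same number in different groups correlated above 0.1 in their deviations in 8 of 18 pairs, with r from -0.0686 to 0.283, although 11 of 12 libraries correlated best with their own number, which is a hint from the data and not from the design. Genes under 1 CPM rest on few counts per group, and small differences in them were hardly detectable at this depth. Col19a1, under 1 CPM in E13.5 p18mKO2- libraries, was called with stage at a log2 fold change of 3.73, and lost the call in some alternatives.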
